A study of Mus musculus with 12 samples.

Results

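The vesicle release and SNARE machinery was followed through sorted mouse gallbladder and small intestine epithelium as 82 protein-coding genes. The genes were taken by symbol, as synaptotagmins, syntaxins, syntaxin-binding proteins, VAMPs, the SNAP-25 family, complexins, RIMs, Munc13 proteins, Rab3 and Rab27 GTPases, SV2 proteins, synapsins, Mint adaptors and liprins, from the 43432 genes of the count table. They fell into 9 role classes, and 68 of the 82 passed the filter on low counts and were tested. RNA was sequenced in bulk from Flare25 mice, an IL-25 reporter strain in which cells that use the Il25 gene carry a red fluorescent protein. Live single EpCAM+ cells were sorted into 4 groups of 3 libraries, namely gallbladder IL-25+ (GB-pos), gallbladder IL-25- (GB-neg), proximal small intestine IL-25+ (SI-pos) and proximal small intestine IL-25- (SI-neg), and a library is named by its group and replicate number. All mice carried the reporter, and the treatment field describes all groups as homeostasis. A separate label puts HDM AF647, given 1 day before collection, on the 6 gallbladder libraries and on no small intestine library, so tissue and that treatment cannot be told apart. Neither age nor sex is labelled.

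Regulated secretion ends in a membrane fusion step run by SNARE proteins. A VAMP on the vesicle zips up with a syntaxin and a SNAP-25 type protein on the target membrane, and Munc18 proteins hold the syntaxin and guide the assembly. Rab3 and Rab27 GTPases bring the vesicle to the membrane, RIM, Munc13, Mint and liprin proteins dock and prime it, complexins hold the assembled complex, and synaptotagmins couple fusion to calcium. In gut epithelium the best known users are enteroendocrine cells, which release hormone granules, and goblet and Paneth cells. IL-25+ cells of gut epithelium are mainly tuft cells, chemosensory cells known for releasing IL-25, leukotrienes and acetylcholine.

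Libraries held 23703449 to 64736650 counts, and levels are given as CPM, counts scaled to a common library size after TMM. Il25, at chr14:54932695-54935837 of GRCm38, stood at 6.39, 12.03 and 6.92 CPM in GB-pos 1 to 3 and at 0.674, 0.0295 and 0 CPM in GB-neg 1 to 3. It stood at 6.38, 18.2 and 14.6 CPM in SI-pos and at 0, 0.0334 and 0.0508 CPM in SI-neg. All 14 listed tuft markers passed as higher in IL-25+ cells of each tissue, beside 12.4% of all genes in gallbladder and 14.5% in small intestine. The marker lists were chosen with earlier results of these data known, so this is no independent check of the sort. GB-neg 1 stood apart: its 22 enteroendocrine markers summed to 487 CPM, against 10.9 and 11.3 CPM in GB-neg 2 and 3. Nothing in the labels ties replicates to different animals, and the p-values cover the spread among these libraries, which may be technical. In bulk RNA, fewer cells of a type and less RNA per cell cannot be told apart. Reads carried no strand, so a gene and a neighbour that overlaps it on the other strand could not be separated.

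Vamp2, Vamp8, Rab27a and Syt1 were higher in IL-25+ than in IL-25- cells of both tissues, and Rab3b and Rims2 passed as higher in gallbladder. In small intestine, Syt7, Snap25 and the complexins Cplx1 and Cplx2 were lower in IL-25+ cells. In gallbladder, 15 members were higher and 9 lower in IL-25+ cells (edgeR quasi-likelihood test, Benjamini-Hochberg adjusted p under 0.05 over 16636 genes), which is 35.3% of the 68, beside 26.8% of all genes. In small intestine, 18 were higher and 14 lower, or 47.1% of members beside 27.2% of all genes. Over all genes, the gallbladder gate groups did not overlap in 17.8% as higher and 23.4% as lower. In the small intestine gate the shares were 24.9% and 24.4%. They were 17.3% and 24.5% between IL-25+ fractions, and 21.8% and 21.7% between IL-25- fractions. Lack of overlap was 1 of the criteria for giving a member in full. Where it is stated, it describes the values and adds no support. Mitochondrial genes took 7.13 to 8.83% of counts in GB-pos against 11.2 to 25% in GB-neg, and 12.1 to 17.2% in SI-pos against 26.6 to 34.9% in SI-neg. With these genes left out, 101 of the 102 calls of members over all 5 comparisons held, and beyond that the part of this share in the results was not tested. Median log2 fold changes over the 68 members were 0.22 in gallbladder and -0.14 in small intestine, beside -0.15 and -0.07 over all genes tested. Of the 9 role classes, the complexins had no member that passed in gallbladder (log2 fold changes of -3.27 for Cplx1, adjusted p = 0.219, and -0.83 for Cplx2, adjusted p = 0.657).

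**Figure D1:**
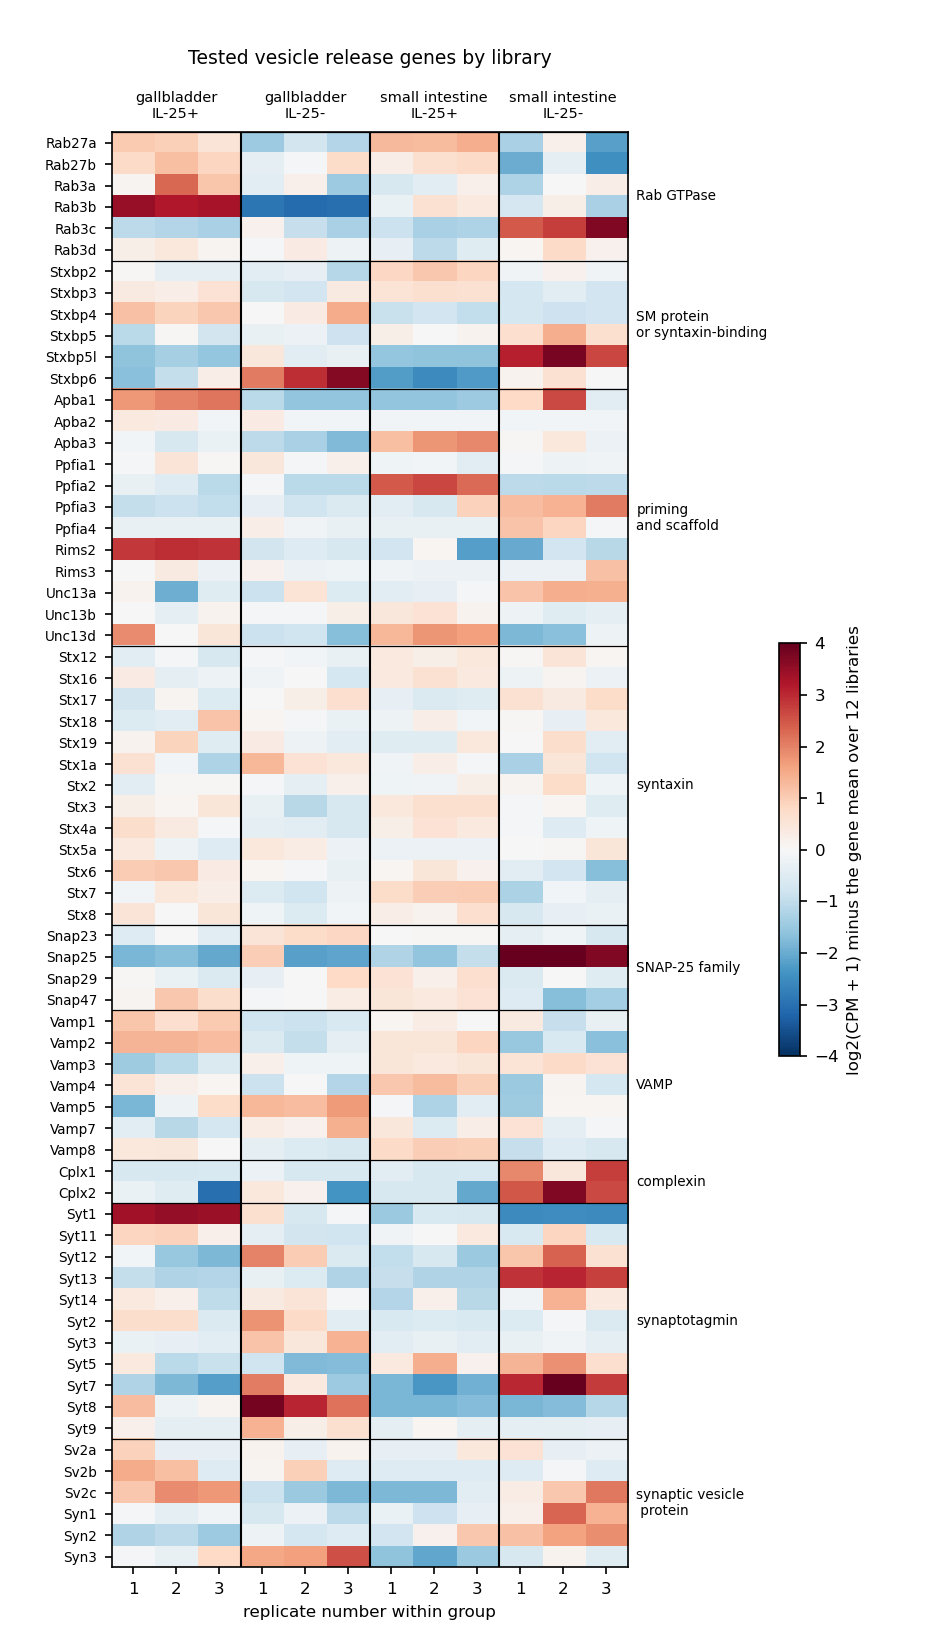
Level of 67 of the tested members in each of 12 libraries, as log2(CPM + 1) minus the gene's mean over the libraries, with colours capped at 4 either way and genes grouped by role. Rab3b, Rims2 and Syt1 are highest in the 3 gallbladder IL-25+ libraries, and Snap25, Stxbp5l, Syt7 and Syt13 in the 3 small intestine IL-25- libraries.

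Both tissues shared 8 members that were higher in IL-25+ cells, which is 11.8% of the 68 beside 7.07% of all genes. They were Vamp2, Vamp8, Stx3, Stx4a, Rab27a, Unc13d, Apba3 and Syt1. Lower in both were 4 of the 68, Stxbp5l, Stxbp6, Syn3 and Syt7, a share near the 5.87% of all genes. Apba1 alone passed in opposite directions, a share near the 1.15% of all genes. The tissues were sorted and sequenced as separate libraries, and no control is shared between these 2 comparisons. Both come from 1 fit of all 12 libraries with a shared estimate of the spread, however. A call in 1 tissue can therefore depend on libraries of the other.

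**Figure D2:**
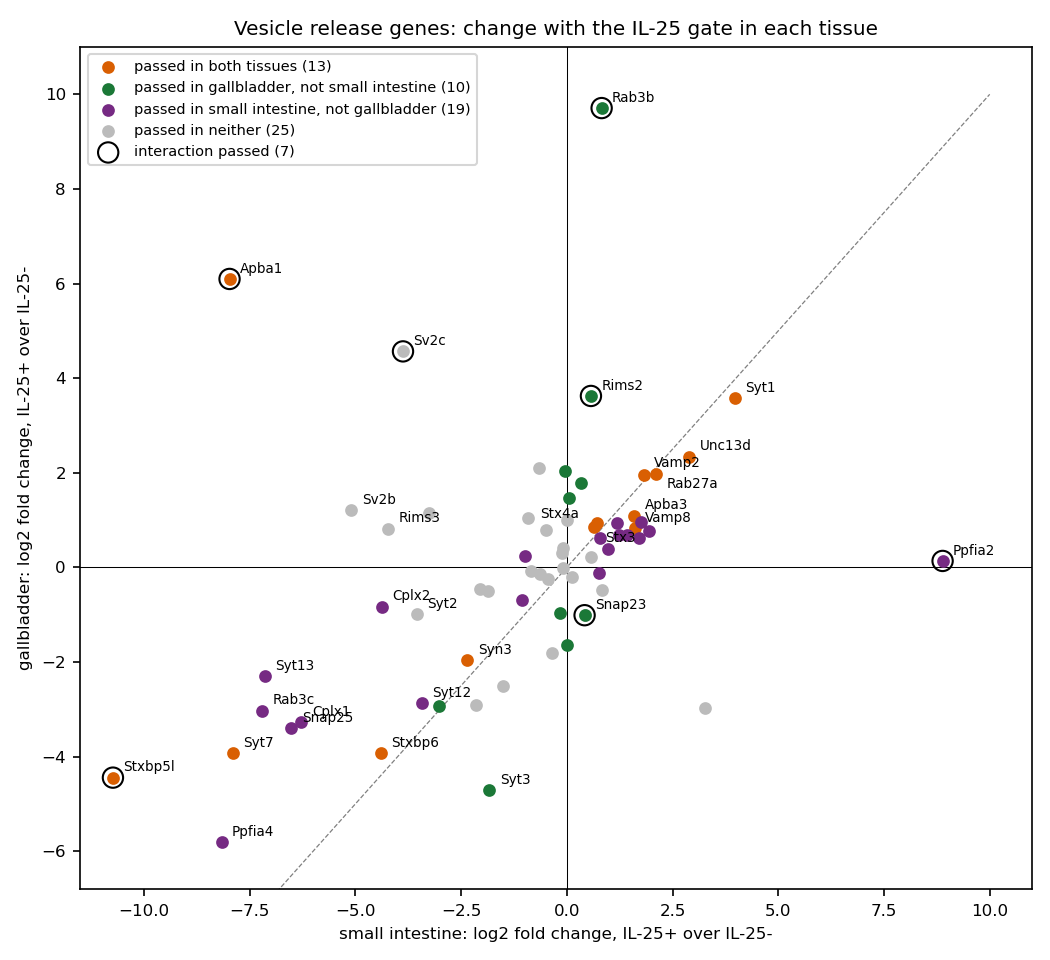
Log2 fold change of IL-25+ over IL-25- cells in small intestine (horizontal axis) and gallbladder (vertical axis) for 67 of the tested members, coloured by where the test passed, with those that passed the interaction of tissue and gate circled and the dashed line marking equal change. Vamp2, Rab27a, Unc13d and Syt1 lie near the line, while Rab3b (9.71 in gallbladder, 0.82 in small intestine) and Apba1 (fitted values of 6.10 in gallbladder and -7.97 in small intestine) lie far above it.

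Among the vesicle SNAREs, Vamp2 (synaptobrevin 2, at chr11:69088490-69092384), which neurons and endocrine cells use for fast release, was higher in IL-25+ cells of both tissues. It stood at 372, 374 and 343 CPM in GB-pos 1 to 3 against 96.6, 74.4 and 112 CPM in GB-neg 1 to 3, and at 204, 204 and 263 CPM in SI-pos against 50.6, 95.1 and 44.6 CPM in SI-neg. Every IL-25+ library was above every IL-25- library of either tissue. The change was 1.95 ± 0.27 in gallbladder (log2, SE, adjusted p = 0.000167) and 1.82 ± 0.27 in small intestine (adjusted p = 0.000281). The 2 changes differed by 0.13 ± 0.37 on the log2 scale (SE, adjusted p = 0.885). Vamp8 (endobrevin), a SNARE of endosomes and of granules in mast and exocrine cells, stood at 108, 111 and 81.0 CPM in GB-pos against 62.0, 54.7 and 51.2 CPM in GB-neg. In SI-pos, Vamp8 stood at 136, 160.5 and 155 CPM, against 42.0, 55.9 and 50.4 CPM in SI-neg. The IL-25+ libraries lay above the IL-25- libraries in each tissue, by 0.84 (adjusted p = 0.00579) in gallbladder and 1.60 (adjusted p = 5.74e-05) in small intestine on the log2 scale.

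The plasma membrane syntaxins Stx3 and Stx4a passed as higher too. Stx3, the apical syntaxin of polarised epithelium, stood at 129, 115 and 154 CPM in GB-pos against 87.9, 50.0 and 69.5 CPM in GB-neg (log2 fold change 0.94 ± 0.23 (SE), adjusted p = 0.00880). In small intestine it stood at 145, 170.0 and 171 CPM in SI-pos against 102, 116 and 77.2 CPM in SI-neg (log2 fold change 0.72 ± 0.23 (SE), adjusted p = 0.0329). The groups did not overlap in either tissue, but the small intestine call was lost without SI-pos 2, SI-pos 3, SI-neg 1 or SI-neg 3, under DESeq2, with RLE size factors or without SI-neg 3 and GB-neg 1 together (adjusted p 0.0715 to 0.131). Stx4a encodes syntaxin 4, found at basolateral membranes, and stood at 187, 145 and 109 CPM in GB-pos against 86.8, 83.7 and 72.6 CPM in GB-neg (log2 fold change 0.86 ± 0.22 (SE), adjusted p = 0.0100). It stood at 133, 169 and 149 CPM in SI-pos against 108, 78.3 and 100.3 CPM in SI-neg (log2 fold change 0.65 ± 0.22 (SE), adjusted p = 0.0391). These groups did not overlap either, but the gallbladder call was lost without GB-pos 1 (adjusted p = 0.0559) and the small intestine call without GB-pos 2, GB-neg 2, any SI-pos library or any SI-neg library, under DESeq2, with RLE size factors, with no low-count filter, without SI-neg 3 and GB-neg 1 together or without mitochondrial genes (adjusted p 0.0505 to 0.142).

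Rab27a and Unc13d passed as higher in both tissues. Rab27a, a GTPase that docks secretory lysosomes and that is missing in Griscelli syndrome, stood at 220.4, 207 and 153 CPM in GB-pos against 38.2, 62.6 and 46.4 CPM in GB-neg. In SI-pos, Rab27a stood at 261, 257 and 293 CPM, against 42.7, 122 and 22.5 CPM in SI-neg. The lowest IL-25+ library, GB-pos 3, stood at 153 CPM, and the highest IL-25- library, SI-neg 2, at 122 CPM. The log2 fold change was 1.98 in gallbladder (adjusted p = 0.00865) and 2.11 in small intestine (adjusted p = 0.00621), where it was 3.05 without SI-neg 2. Unc13d (Munc13-4), its priming partner in cytotoxic lymphocytes, stood at 37.7, 9.21 and 13.4 CPM in GB-pos against 4.71, 4.99 and 2.18 CPM in GB-neg. In SI-pos, Unc13d stood at 24.9, 34.0 and 31.7 CPM, against 1.99, 2.24 and 7.97 CPM in SI-neg. The small intestine change was 2.89 (adjusted p = 0.00553; 3.83 without SI-neg 3). The gallbladder change, 2.34 (adjusted p = 0.0161), rested in part on GB-pos 1, being 1.50 without GB-pos 1, and its call was lost without GB-pos 1 or GB-neg 3 (adjusted p 0.0592 to 0.0983).

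Ptprc (Cd45), a leukocyte gene that tuft cells also express, stood at 489.9 to 571 CPM in GB-pos and 919.6 to 1224 CPM in SI-pos. It made up nearly all of the 8-gene T cell list in IL-25+ libraries, and the list summed to 495, 489.9 and 571 CPM in GB-pos 1 to 3 against 2.26, 1.56 and 0.260 CPM in GB-neg, and 945, 923 and 1277 CPM in SI-pos against 8.19, 79.5 and 21.9 CPM in SI-neg. In GB-pos, Cd3g, Trac and Nkg7 had 0 counts in all 3 libraries, and Trac and Nkg7 had 0 counts in GB-neg as well. Of the 6 genes of the T cell list that were tested, only Ptprc passed between the gates, as higher in both tissues. Between the IL-25+ fractions, 5 of the 6 were lower in GB-pos than in SI-pos and 0 higher, beside 13.1% and 10.5% of all genes. The 12 myeloid and mast cell markers summed to 641, 795 and 621 CPM in GB-pos against 128, 313 and 79.8 CPM in GB-neg, and to 589.8, 680.1 and 628 CPM in SI-pos against 80.2, 68.0 and 83.2 CPM in SI-neg. Kit, which stood at 602 to 766 CPM in GB-pos and 563 to 652 CPM in SI-pos, made up nearly all of the sum in IL-25+ libraries. Of the 9 markers of that list that were tested, 1 was higher and 2 lower in gallbladder IL-25+ cells, and 2 were higher and 1 lower in small intestine IL-25+ cells. The mast cell protease genes Mcpt1, Mcpt2 and Cpa3 had 0 counts in all 6 IL-25+ libraries. They had 0 counts in SI-neg too, and Cpa3 also had 0 counts in GB-neg, so these zeros do not set the gates apart in small intestine. The part of such cells in the results on Rab27a, Unc13d, Vamp8 and Stxbp2 was not tested.

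Apba3 (Mint3), an adaptor of the Mint family, stood at 23.1, 15.8 and 20.5 CPM in GB-pos against 11.6, 9.51 and 6.59 CPM in GB-neg. In SI-pos, Apba3 stood at 58.1, 87.9 and 96.2 CPM, against 25.8, 33.7 and 20.9 CPM in SI-neg. The groups did not overlap, with 1.10 (adjusted p = 0.0173) in gallbladder and 1.59 (adjusted p = 0.00195) in small intestine. The gallbladder call was lost without GB-pos 1 or GB-neg 3 or under limma-voom (adjusted p 0.0588 to 0.0868). Syt1, the calcium sensor of fast transmitter release, stood at 68.1, 75.6 and 71.8 CPM in GB-pos against 9.40, 3.25 and 5.42 CPM in GB-neg. In SI-pos, Syt1 stood at 1.36, 3.37 and 3.28 CPM, against 0.148, 0.200 and 0.152 CPM in SI-neg. The groups did not overlap in either tissue. The change was 3.57 ± 0.45 in gallbladder (log2, SE, adjusted p = 7.31e-05) and 3.98 ± 0.51 in small intestine (adjusted p = 8.99e-05), and the 2 differed by -0.41 ± 0.60 on the log2 scale (SE, adjusted p = 0.757).

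**Figure D3:**
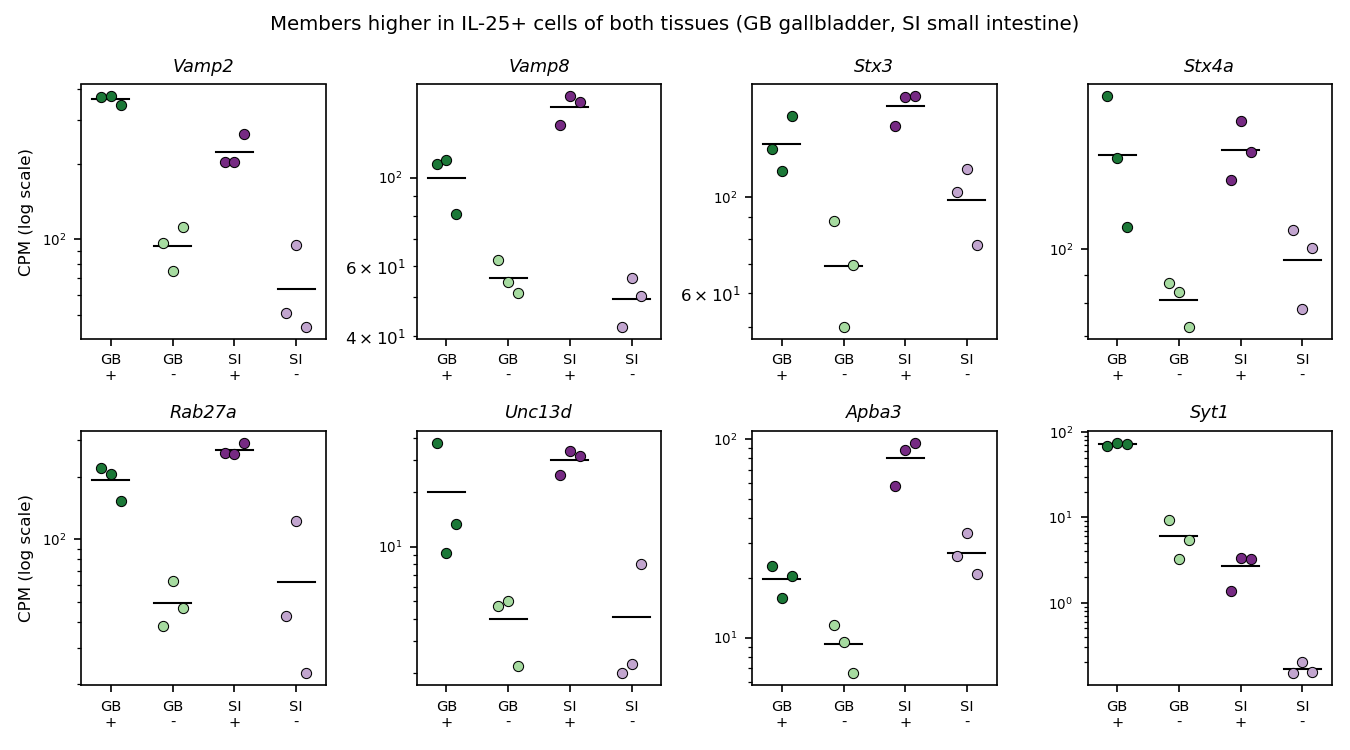
CPM on a log axis of the 8 members that were higher in IL-25+ cells of both tissues. Points are libraries, bars are group means, and plus and minus stand for the IL-25+ and IL-25- gates. Syt1 averages 71.8 CPM in gallbladder IL-25+ cells and 2.67 CPM in small intestine IL-25+ cells, whereas Stx4a averages 147 CPM in gallbladder IL-25+ cells and 150 CPM in small intestine IL-25+ cells.

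In all, 6 members passed as higher in gallbladder IL-25+ cells and did not pass in the small intestine, among them Rab3b and Rims2. The share of all genes in this class was not counted, but 12.4% of all genes were higher in gallbladder and 7.07% in both tissues. Passing in 1 tissue only is no test of a difference between tissues, which is the interaction given below. Rab3b, a vesicle GTPase of neurons and endocrine cells at chr4:108879063-108943324, stood at 96.4, 79.5 and 84.8 CPM in GB-pos 1 to 3 against 0.168, 0.0295 and 0.0649 CPM in GB-neg 1 to 3, and at 6.15, 12.1 and 10.5 CPM in SI-pos against 4.48, 9.21 and 2.56 CPM in SI-neg. It was high in GB-pos, low in both small intestine groups and near 0 in GB-neg, with 12, 1 and 2 counts. The gallbladder change was log2 fold change 9.71 ± 0.70 (SE), adjusted p = 7.97e-07, or 10.73 without GB-neg 1. Rims2, an active zone scaffold that binds Rab3 and stands at chr15:39198261-39684372, held 143, 155 and 147 CPM in GB-pos against 11.2, 13.0 and 11.98 CPM in GB-neg. In SI-pos, Rims2 stood at 10.98, 20.1 and 3.37 CPM, against 3.98, 10.9 and 8.25 CPM in SI-neg. The 3 GB-pos libraries stood above the 9 others, whose highest value was 20.1 CPM, and the gallbladder change was log2 fold change 3.62 ± 0.53 (SE), adjusted p = 0.000266.

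Vamp1, Syt11 and Rab3a were higher as well. Vamp1 (synaptobrevin 1), a close relative of Vamp2, stood at 57.0, 42.0 and 54.6 CPM in GB-pos against 14.6, 13.8 and 16.6 CPM in GB-neg (log2 fold change 1.77 ± 0.32 (SE), adjusted p = 0.00123). Syt11, a synaptotagmin without calcium binding, stood at 19.9, 20.8 and 12.1 CPM in GB-pos against 7.62, 5.79 and 5.62 CPM in GB-neg (log2 fold change 1.47 ± 0.48 (SE), adjusted p = 0.0380). Neither pair of groups overlapped. The Syt11 call was lost without GB-pos 1, GB-pos 2, any GB-neg library or any SI-pos library, with no low-count filter or without SI-neg 3 and GB-neg 1 together (adjusted p 0.0516 to 0.105). Rab3a overlapped between the groups (9.03, 45.2 and 19.3 CPM in GB-pos against 5.87, 9.63 and 2.40 CPM in GB-neg, adjusted p = 0.0410), its log2 fold change of 2.04 was 1.23 without GB-pos 2, and its call was lost without GB-pos 2, GB-pos 3, GB-neg 1, GB-neg 3, SI-pos 1 or SI-pos 2, in a fit of the compared groups alone or without SI-neg 3 and GB-neg 1 together (adjusted p 0.0510 to 0.216).

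The neuronal genes of the marker list were checked beside this set. The 15 neuron and glia markers summed to 439.7, 407 and 428 CPM in GB-pos 1 to 3, 145, 128 and 112 CPM in GB-neg, 111, 91.4 and 98.2 CPM in SI-pos and 48.1, 68.4 and 54.1 CPM in SI-neg. Map2 and Nefl held most of the GB-pos sum (253, 283 and 261 and 138, 90.6 and 155 CPM). Of the 11 markers of this list that were tested, 2 were higher and 2 lower in gallbladder IL-25+ cells. Of all genes, 12.4% were higher and 14.4% lower there. Between the IL-25+ fractions, 4 markers were higher and 1 lower in GB-pos than in SI-pos, beside 10.5% and 13.1% of all genes. Rab3b and Rims2 stood at 79.5 to 96.4 CPM and 143 to 155 CPM in the GB-pos libraries. The part of neuronal RNA in these results was not tested.

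The 9 members lower in gallbladder IL-25+ cells included the widespread SNAREs Snap23 and Vamp3. Snap23, the relative of Snap25 that most non-neuronal cells use, at chr2:120567671-120601255, stood at 63.7, 90.2 and 67.4 CPM in GB-pos against 130, 152 and 164 CPM in GB-neg (log2 fold change -1.01 ± 0.20 (SE), adjusted p = 0.00202). Vamp3 (cellubrevin), a SNARE of recycling endosomes, stood at 33.0, 43.0 and 60.4 CPM in GB-pos against 104, 80.0 and 81.2 CPM in GB-neg (log2 fold change -0.96 ± 0.22 (SE), adjusted p = 0.00572). Both pairs of groups were apart. Stxbp6 (amisyn), a syntaxin-binding protein, was lower in IL-25+ cells of both tissues. It stood at 1.13, 2.49 and 7.11 CPM in GB-pos against 27.9, 51.5 and 85.1 CPM in GB-neg (log2 fold change -3.93 ± 0.66 (SE), adjusted p = 0.000742; -4.94 without GB-pos 3). In SI-pos, Stxbp6 stood at 0.453, 0.161 and 0.405 CPM, against 6.44, 9.41 and 5.94 CPM in SI-neg (log2 fold change -4.40 ± 0.72 (SE), adjusted p = 0.000575).

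The other gallbladder decreases were each lost under at least 1 alternative. Syt8 stood at 7.35, 2.08 and 2.83 CPM in GB-pos against 50.2, 28.4 and 15.0 CPM in GB-neg (log2 fold change -2.93 ± 1.01 (SE), adjusted p = 0.0468; -3.67 without GB-pos 1), and it lost its call without GB-pos 2, GB-pos 3, GB-neg 1, GB-neg 2 or any SI-pos library, with no low-count filter or without SI-neg 3 and GB-neg 1 together (adjusted p 0.0548 to 0.163). Vamp7, a SNARE of late endosomes and lysosomes, stood at 6.10, 3.34 and 4.85 CPM in GB-pos against 10.5, 9.63 and 24.4 CPM in GB-neg (log2 fold change -1.64 ± 0.52 (SE), adjusted p = 0.0328). The Vamp7 call was lost without GB-pos 2, GB-pos 3 or GB-neg 3, under limma-voom or in a fit of the compared groups alone (adjusted p 0.0604 to 0.167). Syn3 (synapsin 3) was lower in both tissues, at 4.24, 3.45 and 8.37 CPM in GB-pos against 14.7, 15.9 and 31.7 CPM in GB-neg (log2 fold change -1.95 ± 0.59 (SE), adjusted p = 0.0265). In SI-pos, Syn3 stood at 0.792, 0.281 and 0.932 CPM, against 2.46, 4.94 and 2.87 CPM in SI-neg (log2 fold change -2.35 ± 0.62 (SE), adjusted p = 0.0129). Its calls were lost without GB-pos 1, GB-pos 2 or GB-neg 3 (adjusted p 0.0796 to 0.128) in gallbladder and without SI-pos 2 (adjusted p = 0.0547) in small intestine. On 14.1% of its exon bases Syn3 overlaps Timp3 on the other strand, whose counts were 496, 215 and 1331 in GB-pos against 37311, 8275 and 7465 in GB-neg, and 11, 27 and 2 in SI-pos against 582, 117 and 572 in SI-neg. The part of those reads in Syn3 was not tested. Syt3 was at 2.47 CPM or less in every library (log2 fold change -4.71 ± 1.64 (SE), adjusted p = 0.0487 in gallbladder; -5.51 without GB-pos 1), and its call was lost without any GB-pos library, any GB-neg library, any SI-pos library or any SI-neg library, with RLE size factors, with no low-count filter or without SI-neg 3 and GB-neg 1 together (adjusted p 0.0503 to 0.116).

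In small intestine IL-25+ cells, 10 members passed as higher that did not pass in gallbladder, among them the Munc18 genes Stxbp2 and Stxbp3 and the endosomal syntaxins Stx7 and Stx8. For this class, too, the share of all genes was not counted, but 14.5% were higher in small intestine and 7.07% in both tissues. Stxbp2 (Munc18-2), the partner of syntaxin 3 in epithelium and mast cells, stood at 262, 317 and 268 CPM in SI-pos against 134, 166 and 133 CPM in SI-neg (log2 fold change 0.97 ± 0.22 (SE), adjusted p = 0.00619). Stxbp3 (Munc18-3), the partner of syntaxin 4, stood at 138, 145 and 142 CPM in SI-pos against 57.5, 67.3 and 54.8 CPM in SI-neg (log2 fold change 1.24 ± 0.26 (SE), adjusted p = 0.00372). For both the SI-pos libraries lay well above the SI-neg libraries. Stx7, a late endosomal syntaxin, stood at 147, 172 and 177 CPM in SI-pos against 36.0, 80.6 and 67.5 CPM in SI-neg (log2 fold change 1.43 ± 0.28 (SE), adjusted p = 0.00212). Snap47, of the SNAP-25 family, stood at 26.7, 24.9 and 28.8 CPM in SI-pos against 12.8, 5.11 and 6.78 CPM in SI-neg (log2 fold change 1.70 ± 0.38 (SE), adjusted p = 0.00474). On 11.6% of its exon bases Snap47 overlaps Jmjd4 on the other strand. Jmjd4 had 360, 388 and 332 counts in SI-pos, 321, 274 and 517 in SI-neg and 849, 392 and 160 in GB-neg. The part of those reads in Snap47 was not tested. Rab27b, the close relative of Rab27a, stood at 91.6, 118 and 129 CPM in SI-pos against 18.5, 57.1 and 12.9 CPM in SI-neg (log2 fold change 1.94 ± 0.48 (SE), adjusted p = 0.00975; 2.85 without SI-neg 2). These groups did not overlap.

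Ppfia2 (liprin alpha 2), an active zone scaffold at chr10:106470339-106935952, was nearly absent from SI-neg. It stood at 10.6, 12.4 and 9.16 CPM in SI-pos against 0.0297, 0 and 0.0254 CPM in SI-neg, that is 816 counts against 2. The ratio of CPM was 552 (95% interval 152 to 4570.0), an exact binomial interval that covers counting error only, with adjusted p = 0.00865, and the ratio lay between 392 and 744 with any 1 of the 6 small intestine libraries left out. On 22.3% of its exon bases Ppfia2 overlaps Acss3 on the other strand, which had 8, 2 and 0 counts in SI-pos and 43, 34 and 4 in SI-neg.

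Vamp4, Unc13b, Stx6 and Stx8 were higher with calls that were lost in places. Vamp4, of the trans-Golgi network, stood at 29.5, 33.5 and 26.9 CPM in SI-pos against 4.18, 14.4 and 7.92 CPM in SI-neg (log2 fold change 1.76 ± 0.47 (SE), adjusted p = 0.0134). The Vamp4 call was lost without SI-neg 3 or without SI-neg 3 and GB-neg 1 together (adjusted p 0.0506 to 0.0539). Unc13b (Munc13-2) changed by 0.76 (adjusted p = 0.0109), with 132 to 177 CPM in SI-pos against 84.4 to 103 CPM in SI-neg. The Unc13b call was lost without SI-pos 2 (adjusted p = 0.0542). Stx6, a Golgi and endosome syntaxin, changed by 1.18 (adjusted p = 0.0215), with 30.5 to 40.1 CPM in SI-pos against 8.15 to 21.1 CPM in SI-neg. The Stx6 call was lost without SI-pos 2, SI-pos 3 or SI-neg 3 or without SI-neg 3 and GB-neg 1 together (adjusted p 0.05001 to 0.0843). Stx8, the partner of Stx7, changed by 0.79 (adjusted p = 0.0384), with 36.4 to 52.5 CPM in SI-pos against 20.6 to 27.5 CPM in SI-neg. The Stx8 call was lost without any SI-pos library or any SI-neg library, with RLE size factors, with no low-count filter or without SI-neg 3 and GB-neg 1 together (adjusted p 0.0547 to 0.170).

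Several release genes known from endocrine cells were at or near 0 in small intestine IL-25+ cells and higher in IL-25- cells. Syt7, a high-affinity calcium sensor of hormone granules and lysosomes at chr19:10389090-10453180, stood at 0.415, 0 and 0.324 CPM in SI-pos against 39.4, 107 and 33.6 CPM in SI-neg (log2 fold change -7.90 ± 1.49 (SE), adjusted p = 0.00263; -7.19 without SI-neg 2 and -8.50 without SI-pos 1). Syt13 stood at 0.264, 0.0401 and 0.0405 CPM in SI-pos against 16.9, 19.0 and 14.9 CPM in SI-neg (log2 fold change -7.14 ± 1.25 (SE), adjusted p = 0.000968; -8.59 without SI-pos 1), and Rab3c at 0.340, 0 and 0.0405 CPM in SI-pos against 12.5, 15.6 and 30.7 CPM in SI-neg (log2 fold change -7.21 ± 1.68 (SE), adjusted p = 0.00671; -9.69 without SI-pos 1, where SI-pos held 1 count). Over these 3 genes the lowest SI-neg value was 12.5 CPM (Rab3c) and the highest SI-pos value 0.415 CPM (Syt7). Stxbp5l (tomosyn 2), which holds back SNARE assembly, stood at 0.0377, 0 and 0 CPM in SI-pos against 25.5, 41.4 and 18.3 CPM in SI-neg. It had 1 count over SI-pos against 2821 over SI-neg, a ratio of CPM of 2083 (95% interval 374 to 82310.0) in favour of SI-neg (adjusted p = 3.96e-05). Without SI-pos 1 its SI-pos count was 0 and the level in SI-neg was at least 452-fold higher. Apba1 (Mint1), an adaptor of neurons, had 2 counts over SI-pos against 708 over SI-neg, a ratio of 261 (95% interval 72.1 to 2163) in favour of SI-neg (adjusted p = 0.00507), or 96.8 without SI-neg 2, 396 without SI-neg 3 and 170.4 without SI-pos 1. Without SI-pos 3 the SI-pos count of Apba1 was 0 and the level in SI-neg was at least 118-fold higher.

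Snap25, the neuronal and endocrine SNARE at chr2:136713453-136782428, stood at 1.02, 0.562 and 1.38 CPM in SI-pos against 73.5, 138 and 58.9 CPM in SI-neg, with groups far apart. Its log2 fold change of -6.51 (SE 1.64, adjusted p = 0.0151) lost the call without any SI-pos library (adjusted p 0.0612 to 0.0720). Cplx2, a complexin, stood at 4.38, 4.37 and 1.01 CPM in SI-pos against 45.8, 106 and 51.2 CPM in SI-neg (log2 fold change -4.38 ± 1.38 (SE), adjusted p = 0.0386) and lost its call without GB-pos 1, GB-pos 2, GB-neg 2, any SI-pos library or any SI-neg library or with no low-count filter (adjusted p 0.0533 to 0.134). Cplx1 stood at 0.151, 0 and 0.0405 CPM in SI-pos against 4.90, 1.17 and 9.72 CPM in SI-neg (log2 fold change -6.27 ± 1.89 (SE), adjusted p = 0.0256; -5.49 without SI-neg 3 and -7.79 without SI-pos 1). The Cplx1 call was lost without SI-pos 2, SI-pos 3, SI-neg 1 or SI-neg 3 or without SI-neg 3 and GB-neg 1 together (adjusted p 0.0535 to 0.0955). Syt12 stood at 0.981, 1.52 and 0.405 CPM in SI-pos against 7.36, 19.1 and 4.93 CPM in SI-neg (log2 fold change -3.42 ± 1.13 (SE), adjusted p = 0.0382; -2.66 without SI-neg 2). The Syt12 call was lost without GB-neg 2, any SI-pos library, SI-neg 1 or SI-neg 2 (adjusted p 0.0509 to 0.130). On 17.2% of its exon bases Syt12 overlaps A930001C03Rik on the other strand, which had 0 counts in SI-pos and 3, 15 and 9 in SI-neg. Ppfia4 had 0 counts over SI-pos against 101 over SI-neg, so that SI-neg was at least 24.9-fold higher (adjusted p = 0.0398). The bound was 15.7 without SI-neg 1, 16.2 without SI-pos 1 and 37.9 without SI-neg 3, and Ppfia4 lost the call without GB-neg 2, any SI-pos library or any SI-neg library or without SI-neg 3 and GB-neg 1 together (adjusted p 0.0526 to 0.105).

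Rab3d and Stx17 were lower as well. Rab3d, known from exocrine granules, changed by -0.99 (adjusted p = 0.0239), with 13.7 to 23.4 CPM in SI-pos against 30.8 to 50.2 CPM in SI-neg. The Rab3d call was lost without SI-pos 2, SI-pos 3 or SI-neg 2 (adjusted p 0.0606 to 0.108). Stx17, the syntaxin of autophagosomes, changed by -1.06 (adjusted p = 0.0140), with 21.4 to 25.6 CPM in SI-pos against 42.0 to 54.5 CPM in SI-neg. The Stx17 call was lost without SI-pos 2, SI-pos 3 or SI-neg 3 or without SI-neg 3 and GB-neg 1 together (adjusted p 0.0520 to 0.0603).

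Enteroendocrine, goblet, Paneth and enterocyte markers summed highest in the same libraries. The 22 listed enteroendocrine markers summed to 41.3, 39.4 and 24.4 CPM in GB-pos 1 to 3 against 487, 10.9 and 11.3 CPM in GB-neg. In small intestine they summed to 542, 203 and 246 CPM in SI-pos against 7710.0, 17290.0 and 8926 CPM in SI-neg. Of these sums, Chgb alone held 217, 5.94 and 36.8 CPM in SI-pos and 4081, 8649 and 4538 CPM in SI-neg. Cpe held 141, 112 and 174 CPM in SI-pos and 92.2, 194 and 99.0 CPM in SI-neg. Of the 21 enteroendocrine markers tested, 12 were lower and 0 higher in small intestine IL-25+ cells, beside 12.8% and 14.5% of all genes. In gallbladder IL-25+ cells 1 was lower and 0 higher, beside 14.4% and 12.4% of all genes. SI-neg 2 was the highest library for the markers and for Snap25, Syt7, Stxbp5l, Cplx2 and Apba1, though not for Rab3c, which was highest in SI-neg 3. GB-neg 1 was the highest gallbladder library for the markers and for Snap25 (8.07 CPM, against 0.0295 and 0.0649 CPM in GB-neg 2 and 3), Syt7, Rab3c, Stxbp5l and Cplx2. The gallbladder change of Syt7 (log2 fold change -3.93 ± 1.23 (SE), adjusted p = 0.0365) was -2.48 without GB-neg 1 and -5.11 without GB-pos 1, and its call was lost without GB-pos 2, GB-pos 3, GB-neg 1, GB-neg 2, SI-pos 1, SI-pos 3 or SI-neg 1, under limma-voom, with no low-count filter, in a fit of the compared groups alone or without SI-neg 3 and GB-neg 1 together (adjusted p 0.0510 to 0.123). That of Stxbp5l (0, 0.223 and 0.0538 CPM in GB-pos against 3.14, 1.21 and 1.49 CPM in GB-neg; log2 fold change -4.44 ± 0.93 (SE), adjusted p = 0.00321) was -3.86 without GB-pos 1 and -5.98 without GB-pos 2, and its call was lost in a fit of the compared groups alone (adjusted p = 0.0659). The 8 goblet markers summed to 67.1, 125 and 108 CPM in GB-pos against 736, 793 and 641 CPM in GB-neg, and to 127, 326 and 535 CPM in SI-pos against 13420.0, 59720.0 and 4418 CPM in SI-neg. All 8 were lower in small intestine IL-25+ cells, beside 12.8% of all genes, and 4 were lower and 1 higher in gallbladder IL-25+ cells, beside 14.4% and 12.4% of all genes. The 6 Paneth markers summed to 21.9, 39.4 and 10.96 CPM in GB-pos against 162, 288 and 105 CPM in GB-neg, and to 43.5, 31.3 and 135 CPM in SI-pos against 931, 5747 and 1269 CPM in SI-neg, with 3 of 6 lower in small intestine. The 12 enterocyte markers summed to 9628, 9390.0 and 8138 CPM in SI-pos against 19030.0, 29760.0 and 20570.0 CPM in SI-neg, with 2 lower. SI-neg 2 was the highest library for all 4 sums. The part of these cells in the results was not tested.

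**Figure D4:**
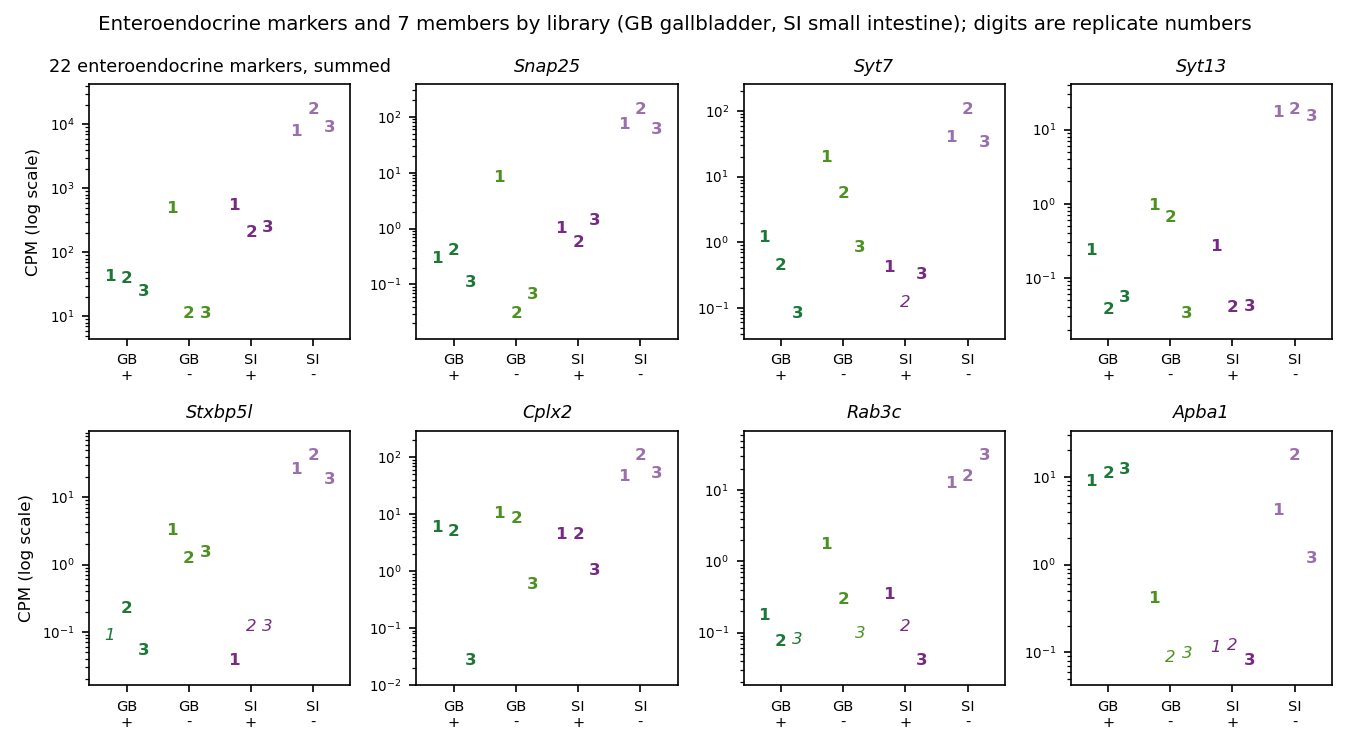
CPM on a log axis of the summed enteroendocrine markers and of 7 members that were lower in small intestine IL-25+ than IL-25- cells. Each digit is the replicate number of 1 library and marks its value, and a thin italic digit is a library with 0 counts, drawn at the level of 3 counts. By group mean, the markers and the members other than Apba1 are highest in small intestine IL-25- libraries, and Apba1 is at 8.80 to 12.1 CPM in gallbladder IL-25+ libraries, where the markers sum to 24.4 to 41.3 CPM.

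The difference of the gate effects between tissues was tested as an interaction, gallbladder effect minus small intestine effect. In it 6 members were higher, beside 3.63% of all genes, and 2 were lower, beside 5.6%. Together these are 11.8% of the 68, beside 9.23% of all genes. Rab3b, Apba1 and Snap23 passed under every alternative that was run. Rab3b, described above, had an interaction of 8.89 ± 0.79 on the log2 scale (SE, adjusted p = 4.07e-05), or 9.90 without GB-neg 1 and 8.26 without SI-neg 2. Apba1 went opposite ways. It stood at 8.80, 10.8 and 12.1 CPM in GB-pos against 0.407, 0 and 0 CPM in GB-neg (log2 fold change 6.10 ± 1.52 (SE), adjusted p = 0.00955). Without GB-neg 1, whose 29 counts were all those of GB-neg, the fitted change was 11.37, a value against 0 counts that is no bound. In SI-pos, Apba1 stood at 0, 0 and 0.0811 CPM, against 4.15, 17.4 and 1.17 CPM in SI-neg. Its fitted interaction of 14.07 ± 2.34 on the log2 scale (SE, adjusted p = 0.00219) rests on 2 counts in SI-pos, and was 19.33 without GB-neg 1, 12.58 without SI-neg 2 and 17.15 without SI-pos 3. The first and last of these are fitted against 0 counts and are no bounds. Snap23, lower in gallbladder IL-25+ cells, did not pass between the small intestine gates, where it stood at 92.02, 93.9 and 94.4 CPM in SI-pos against 69.8, 81.8 and 57.8 CPM in SI-neg (log2 fold change 0.42 ± 0.20 (SE), adjusted p = 0.130), and the interaction was -1.43 ± 0.28 on the log2 scale (SE, adjusted p = 0.00574).

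Rims2 had an interaction of 3.05 ± 0.70 on the log2 scale (SE, adjusted p = 0.0149), 3.72 without SI-pos 2, and lost the call without SI-neg 3 and GB-neg 1 together (adjusted p = 0.0510). Sv2c, a synaptic vesicle glycoprotein, stood at 6.36, 11.8 and 10.6 CPM in GB-pos against 0.926, 0.236 and 0 CPM in GB-neg. In SI-pos, Sv2c stood at 0, 0 and 1.62 CPM, against 3.32, 6.34 and 14.2 CPM in SI-neg. It did not pass within a tissue (adjusted p = 0.0595 in gallbladder and 0.0968 in small intestine). Its interaction of 8.44 ± 2.33 on the log2 scale (SE, adjusted p = 0.0396) was 10.14 without GB-neg 1, 7.73 without SI-neg 3, 7.85 without SI-pos 1, 7.85 without SI-pos 2 and 15.69 without SI-pos 3, the last fitted against 0 counts. The call was lost without any GB-pos library, GB-neg 2, GB-neg 3, SI-pos 1, SI-pos 2 or any SI-neg library, with no low-count filter or without SI-neg 3 and GB-neg 1 together (adjusted p 0.0557 to 0.0942). Stxbp5l was lower in IL-25+ cells of both tissues, by less in gallbladder, with an interaction of 6.29 ± 1.55 on the log2 scale (SE, adjusted p = 0.0215). It was 4.75 without GB-pos 2 and 8.51 without SI-pos 1, and the call was lost without GB-pos 2, SI-pos 2, SI-pos 3 or SI-neg 2 or under limma-voom (adjusted p 0.0550 to 0.135). Ppfia2 had 0.726, 0.482 and 0 CPM in GB-pos against 1.05, 0 and 0 CPM in GB-neg, and its interaction of -8.75 ± 2.54 on the log2 scale (SE, adjusted p = 0.0481) was -2.19 without GB-neg 1, -9.51 without GB-pos 1 and -8.16 without GB-pos 3. Without GB-neg 1 it was fitted against 0 counts in GB-neg. The Ppfia2 interaction call was lost without any GB-pos library, GB-neg 1, any SI-pos library or any SI-neg library, with RLE size factors, under limma-voom or without SI-neg 3 and GB-neg 1 together (adjusted p 0.0525 to 0.968).

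**Figure D5:**
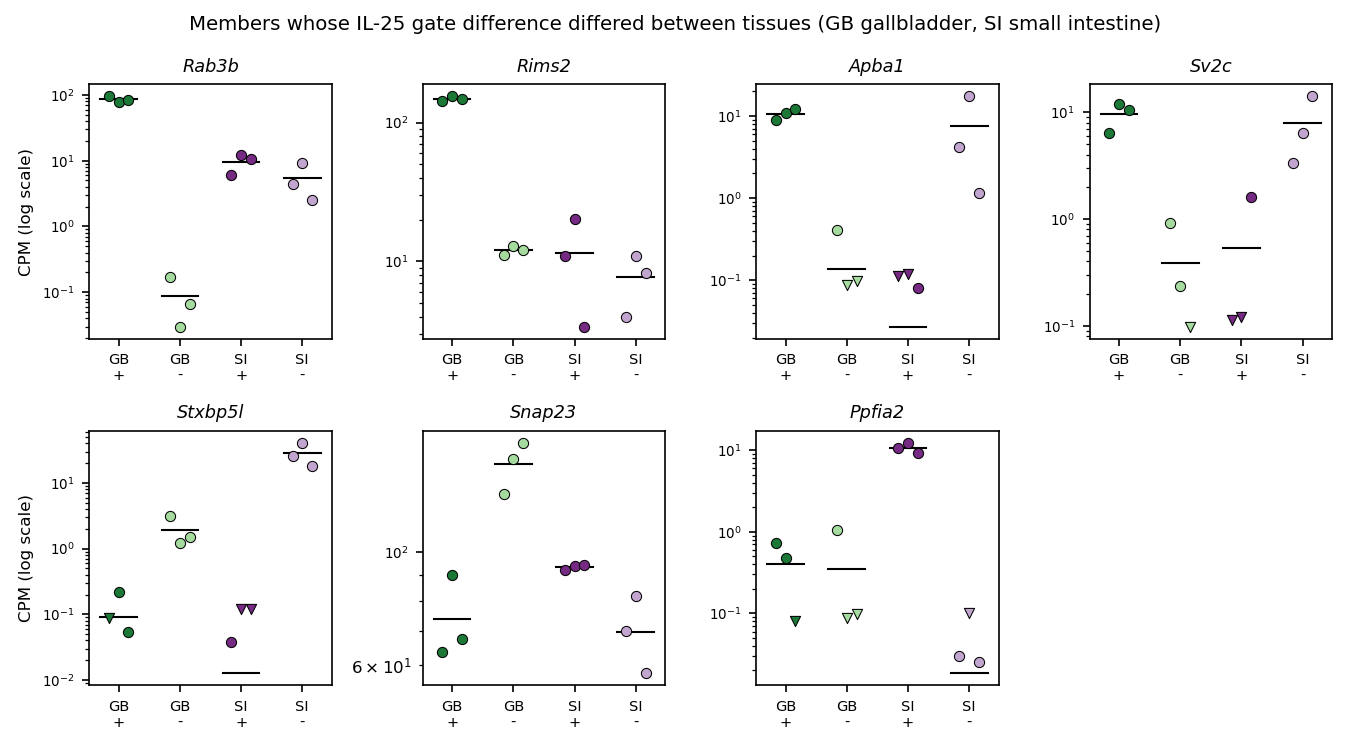
CPM on a log axis of 7 members whose gate difference differed between tissues. Points are libraries, triangles are libraries with 0 counts drawn at the level of 3 counts, bars are group means that count zeros as 0, and plus and minus stand for the gates. Rab3b and Rims2 are highest in gallbladder IL-25+ cells, Apba1 and Sv2c are low in gallbladder IL-25- and small intestine IL-25+ cells, and Snap23 is highest in gallbladder IL-25- cells (149 CPM on average).

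Because the interactions of Rab3b, Apba1 and Snap23 held under every alternative, the 250 bases before their RefSeq start sites are shown, 5′ to 3′ on the gene's strand, from the GRCm38.p6 promoter table, with each GC box (GGGCGG on either strand, the motif of Sp1-type factors) in capitals.
Rab3b, chr4:108878820-108879069, plus strand: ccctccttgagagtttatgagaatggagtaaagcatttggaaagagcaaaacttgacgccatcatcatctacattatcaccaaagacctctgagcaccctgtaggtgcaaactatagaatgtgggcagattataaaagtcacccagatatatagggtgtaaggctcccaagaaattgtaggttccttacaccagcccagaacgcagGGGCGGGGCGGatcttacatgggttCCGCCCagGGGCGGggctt
Apba1, chr19:23758626-23758875, plus strand: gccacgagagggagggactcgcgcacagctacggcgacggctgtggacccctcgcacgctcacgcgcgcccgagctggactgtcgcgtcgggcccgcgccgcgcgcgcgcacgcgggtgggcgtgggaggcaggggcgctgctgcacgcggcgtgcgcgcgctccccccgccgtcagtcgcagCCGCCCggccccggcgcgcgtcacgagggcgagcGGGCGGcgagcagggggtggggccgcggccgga
Snap23, chr2:120567421-120567670, plus strand: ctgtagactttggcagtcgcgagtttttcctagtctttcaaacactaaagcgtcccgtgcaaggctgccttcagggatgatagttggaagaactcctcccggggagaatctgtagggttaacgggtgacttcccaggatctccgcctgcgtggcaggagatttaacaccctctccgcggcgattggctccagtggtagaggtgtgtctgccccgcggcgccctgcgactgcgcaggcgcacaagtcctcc
Rab3b had 4 GC boxes, 2 of which overlap in part, Apba1 had 2, and the Snap23 window had no such letters. The table held 83 promoters of 64 of the 82 members, and GC boxes were in 61.4% of them, beside 32.7% of all 32851 promoters of the same length. The POU octamer ATGCAAAT, the letters read by factors of the family of Pou2f3, was in 1 of the 83 (Stx6), beside 1.60% of all promoters. The cyclic AMP response element TGACGTCA was in 2 (Stxbp3 and Syn1), beside 1.55%. The core of the neuronal silencer element RE1 was in none, beside 0.0335%. Rims2, Snap25 and Vamp2 were among the members without an entry.

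Set directly against small intestine IL-25+ cells, gallbladder IL-25+ cells were higher in 9 members and lower in 7, which is 23.5% of members beside 23.7% of all genes. Increases that held under every alternative included Syt1 (log2 fold change 4.75, adjusted p = 1.93e-05) and Rims2 (3.69, adjusted p = 0.000327; 4.37 without SI-pos 2). Rab3b (3.18, adjusted p = 0.000561) and Syn3 (2.995, adjusted p = 0.00402) held too. Stxbp4 (synip), a syntaxin 4 binding protein, joined them at 24.8, 20.3 and 23.2 CPM in GB-pos against 5.17, 5.86 and 4.87 CPM in SI-pos (log2 fold change 2.10 ± 0.42 (SE), adjusted p = 0.00292). Apba1 had 1044 counts over GB-pos against 2 over SI-pos, a ratio of CPM of 403 (95% interval 111 to 3334) with adjusted p = 0.00442. Leaving out SI-pos 1 or SI-pos 2 lowered that ratio to 263 or 271, and without SI-pos 3 it was at least 182. Syt8 had 414 counts against 2, a ratio of 159.9 (95% interval 44.0 to 1325) with adjusted p = 0.00301, or 95.6 without GB-pos 1, 104 without SI-pos 1 and at least 72.0 without SI-pos 3. The decreases that held were Apba3 (-2.03, adjusted p = 0.000483), Vamp3 at 33.0, 43.0 and 60.4 CPM in GB-pos against 129, 120.2 and 127 CPM in SI-pos (log2 fold change -1.46 ± 0.22 (SE), adjusted p = 0.000443), and Stxbp2 at 153, 116 and 114 CPM in GB-pos against 262, 317 and 268 CPM in SI-pos (log2 fold change -1.15 ± 0.22 (SE), adjusted p = 0.00251).

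The remaining calls of that comparison depended on the settings. Rab3d stood at 34.8, 39.8 and 31.7 CPM in GB-pos against 23.4, 13.7 and 20.7 CPM in SI-pos, and Stx12 at 108, 139.9 and 95.7 CPM in GB-pos against 194, 176 and 201 CPM in SI-pos. Neither pair of groups overlapped. Stxbp6 (3.38, adjusted p = 0.00349; 2.42 without GB-pos 3) lost its call under limma-voom (adjusted p = 0.0586), and Rab3d (0.88, adjusted p = 0.0435) lost it without any GB-pos library, any SI-pos library or SI-neg 1, with no low-count filter or without SI-neg 3 and GB-neg 1 together (adjusted p 0.0506 to 0.169). Among the decreases, Vamp8 (-0.59, adjusted p = 0.0394) lost its call without any GB-pos library, GB-neg 1, GB-neg 2, any SI-pos library or SI-neg 3, under DESeq2, with RLE size factors, with no low-count filter, in a fit of the compared groups alone or without SI-neg 3 and GB-neg 1 together (adjusted p 0.0594 to 0.167), and Stx12 (-0.73, adjusted p = 0.0144) lost it without GB-pos 1, GB-pos 3 or SI-pos 3 (adjusted p 0.0524 to 0.0737). The low-level Ppfia3 (-4.61, adjusted p = 0.0267; -6.01 without GB-pos 2, -3.98 without GB-pos 3 and -2.95 without SI-pos 3) lost it without GB-pos 1, GB-pos 3 or SI-pos 3, under limma-voom or without SI-neg 3 and GB-neg 1 together (adjusted p 0.0544 to 0.147). Syn2 (-3.81, adjusted p = 0.0304; -4.57 without GB-pos 2, -3.18 without GB-pos 3 and -2.90 without SI-pos 3) lost it without GB-pos 1, SI-pos 2, SI-pos 3 or SI-neg 3, in a fit of the compared groups alone or without SI-neg 3 and GB-neg 1 together (adjusted p 0.0530 to 0.123).

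Between the IL-25- fractions, gallbladder cells were higher than small intestine cells in 8 members and lower in 14, or 32.4% of members beside 24.6% of all genes. Syt8 was near 0 in small intestine and not in gallbladder, at 50.2, 28.4 and 15.0 CPM in GB-neg against 0, 0.0667 and 0.635 CPM in SI-neg (log2 fold change 6.99 ± 1.24 (SE), adjusted p = 0.00128; 9.81 without SI-neg 3). Also higher, and held under every alternative, were Syt1 (log2 fold change 5.16, adjusted p = 2.02e-05) and Stxbp6 (2.92, adjusted p = 0.00485). Syn3 (2.60, adjusted p = 0.00742) and Snap23 (1.09, adjusted p = 0.00147) held as well. Lower and held were Rab3b (-5.70, adjusted p = 3.33e-05; -6.69 without GB-neg 1 and -5.08 without SI-neg 2), Stxbp5l (-3.86, adjusted p = 0.00446), Syt13 (-4.92, adjusted p = 0.00574; -5.56 without GB-neg 1), Apba3 (-1.54, adjusted p = 0.00290) and Stxbp5. Stxbp5 (tomosyn 1) stood at 60.3, 62.3 and 41.1 CPM in GB-neg against 118, 203 and 117 CPM in SI-neg (log2 fold change -1.42 ± 0.31 (SE), adjusted p = 0.00492).

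Snap25 and Cplx1 were near 0 in GB-neg 2 and 3. Snap25 stood at 8.07, 0.0295 and 0.0649 CPM in GB-neg against 73.5, 138 and 58.9 CPM in SI-neg, and Cplx1 at 0.351, 0 and 0 CPM in GB-neg against 4.90, 1.17 and 9.72 CPM in SI-neg. Rab3c stood at 1.74, 0.295 and 0 CPM in GB-neg against 12.5, 15.6 and 30.7 CPM in SI-neg, and Syt13 at 0.954, 0.650 and 0.0325 CPM in GB-neg against 16.9, 19.0 and 14.9 CPM in SI-neg. Stxbp5l stood at 3.14, 1.21 and 1.49 CPM in GB-neg against 25.5, 41.4 and 18.3 CPM in SI-neg. In all 5 the SI-neg libraries lay above the GB-neg libraries, which was a criterion for giving them in full and adds no support. Syt5, a synaptotagmin of dense-core vesicles, stood at 1.08, 0.0591 and 0.0974 CPM in GB-neg against 8.40, 11.8 and 4.85 CPM in SI-neg. Syn1 (synapsin 1), which ties vesicles to the cytoskeleton, stood at 0.365, 0.797 and 0.0325 CPM in GB-neg against 1.45, 9.81 and 4.54 CPM in SI-neg, and Ppfia3 (liprin alpha 3) at 0.589, 0.148 and 0.325 CPM in GB-neg against 3.68, 4.24 and 7.49 CPM in SI-neg. These groups were apart as well. Of the members that were higher in gallbladder, Stxbp4 stood at 10.6, 13.5 and 31.6 CPM in GB-neg against 6.02, 5.44 and 5.76 CPM in SI-neg, Snap47 at 18.3, 19.0 and 23.3 CPM in GB-neg against 12.8, 5.11 and 6.78 CPM in SI-neg and Rab27b at 58.4, 72.3 and 126 CPM in GB-neg against 18.5, 57.1 and 12.9 CPM in SI-neg. Here too the groups did not overlap.

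In the IL-25- comparison the calls below were lost in places, and the values in brackets are log2 fold changes. Of the higher ones, Stxbp4 (1.69; 1.08 without GB-neg 3) lost its call without GB-neg 3 (adjusted p = 0.0629), Snap47 (1.29) without GB-neg 3, SI-neg 2 or SI-neg 3 or without SI-neg 3 and GB-neg 1 together (adjusted p 0.0663 to 0.0916), and Rab27b (1.54; 2.45 without SI-neg 2) without GB-neg 3, SI-neg 1 or SI-neg 3, with no low-count filter or in a fit of the compared groups alone (adjusted p 0.0709 to 0.126). Without GB-neg 1, the values of Apba1, Cplx1 and Snap25 below are fitted against 3 or fewer GB-neg counts. Of the lower ones, Apba1 (-5.62; -10.86 without GB-neg 1 and -4.12 without SI-neg 2) lost its call without SI-neg 2 (adjusted p = 0.0688), Syt5 (-4.28; -6.63 without GB-neg 1) without GB-neg 3 (adjusted p = 0.0534), and Cplx1 (-5.35; -10.34 without GB-neg 1 and -4.56 without SI-neg 3) without GB-neg 2, GB-neg 3, SI-pos 3, SI-neg 1 or SI-neg 3 (adjusted p 0.0558 to 0.144). Snap25 (-5.02; -10.75 without GB-neg 1 and -4.42 without GB-neg 2) lost it without any GB-pos library, GB-neg 3, any SI-pos library or any SI-neg library, with no low-count filter or in a fit of the compared groups alone (adjusted p 0.0514 to 0.120). Rab3c (-4.81; -6.95 without GB-neg 1) lost it without GB-neg 2, GB-neg 3 or any SI-neg library or with no low-count filter (adjusted p 0.0505 to 0.0997), and Syn1 (-3.71; -4.63 without GB-neg 2 and -2.90 without SI-neg 2) without GB-neg 1, GB-neg 3, SI-neg 2 or SI-neg 3, with no low-count filter or without SI-neg 3 and GB-neg 1 together (adjusted p 0.0621 to 0.149). Ppfia3 (-3.83) lost it without any GB-neg library or any SI-neg library, with no low-count filter or without SI-neg 3 and GB-neg 1 together (adjusted p 0.0646 to 0.152), and Vamp3 (-0.67) without GB-pos 2, GB-neg 2, GB-neg 3, any SI-pos library or any SI-neg library, with no low-count filter or without SI-neg 3 and GB-neg 1 together (adjusted p 0.0599 to 0.150).

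Levels were compared between genes only per kilobase of exon, as CPM per kb with SD over 3 libraries. Vamp2 was the highest member in GB-pos, at 95.3 ± 4.55 CPM per kb, followed by Stx4a at 62.2 ± 16.4, Rab27a at 49.9 ± 9.25 and Vamp8 at 43.2 ± 7.13. The gap between Stx4a and Rab27a is within their SDs. In GB-neg, Stx12, an endosomal syntaxin, led at 41.5 ± 3.48, then Snap23 at 34.6 ± 3.98, Stx4a at 34.3 ± 3.16 and Vamp3 at 30.7 ± 4.79 CPM per kb. In SI-pos, Rab27a at 69.6 ± 5.09, Stxbp2 at 67.9 ± 7.27, Vamp8 at 65.1 ± 5.61 and Stx4a at 63.4 ± 7.61 CPM per kb lay within their SDs of each other, whereas in SI-neg the leaders were Stx12 at 54.7 ± 10.6 and Vamp3 at 48.7 ± 4.19. Among the synaptotagmins, the highest means were those of Syt1 in GB-pos (8.62 ± 0.450) and Syt8 in GB-neg (16.5 ± 9.39). In SI-pos, Syt5 (2.22 ± 1.34) and Syt11 (2.18 ± 0.469) lay within their SDs of each other, and so did Syt7 (8.03 ± 5.48) and Syt13 (4.50 ± 0.538) in SI-neg.

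Summed by role, the VAMPs held 166 ± 6.45 CPM per kb in GB-pos against 92.6 ± 9.07 in GB-neg, and 181 ± 11.2 in SI-pos against 95.5 ± 13.4 in SI-neg. The Rab GTPases held 108 ± 14.8 CPM per kb in GB-pos against 30.6 ± 5.62 in GB-neg, and 90.6 ± 8.06 in SI-pos against 34.3 ± 19.1 in SI-neg. The complexins ran the other way in small intestine, at 0.763 ± 0.467 CPM per kb in SI-pos against 16.2 ± 5.42 in SI-neg. In gallbladder they were at 0.737 ± 0.629 in GB-pos against 1.48 ± 1.18 in GB-neg.

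Of the neuronal fusion trio, Vamp2 stood at 95.3 ± 4.55 CPM per kb in GB-pos and 58.7 ± 8.99 in SI-pos. Snap25 stood at 0.0396 ± 0.0223 CPM per kb in GB-pos and 0.145 ± 0.0603 in SI-pos, and Stx1a (syntaxin 1A) at 2.04 ± 1.40 in GB-pos and 2.18 ± 0.394 in SI-pos. Stx1a did not pass between the gates (adjusted p = 0.308 in gallbladder and 0.687 in small intestine). Of the epithelial trio, Snap23 stood at 17.2 ± 3.34 CPM per kb in GB-pos and 21.8 ± 0.291 in SI-pos, Stx3 at 23.2 ± 3.47 in GB-pos and 28.4 ± 2.54 in SI-pos, and Vamp8 at 43.2 ± 7.13 in GB-pos and 65.1 ± 5.61 in SI-pos.

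Between the gates, 26.8% of all genes passed in gallbladder and 27.2% in small intestine. Those that passed in both were 7.07% as higher, 5.87% as lower and 1.15% in opposite directions. The share of all genes that passed in neither was not counted. Of the 68 tested members, 25 passed in neither tissue. Some were abundant, such as Ppfia1 (liprin alpha 1) at 136 to 202 CPM in GB-pos against 137 to 193 CPM in GB-neg, and at 104 to 131 CPM in SI-pos against 121 to 137 CPM in SI-neg. Endosomal and Golgi members Stx12, Stx16, Stx5a and Snap29 were among them, and so were scarce ones such as Apba2, Rims3, Stx2, Sv2a and Syt9. A further 14 members were not tested, among them Cplx3, Cplx4, Rims1, Rims4, Unc13c, Snap91 (a clathrin adaptor, taken by its symbol), Syt4, Syt6, Syt10, Syt15, Syt16, Syt17 and Stx11. Syt10 had 0 counts in all 12 libraries, Syt6 had 1 and Syt16 had 2. Syt15 had 433 counts, 410 of them in SI-neg 2.

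Beside the members, 6 lists of related genes were read. Nsf, the ATPase that takes spent SNARE complexes apart, stood at 122, 201 and 138 CPM in GB-pos against 61.1, 61.5 and 75.1 CPM in GB-neg (log2 fold change 1.22 ± 0.21 (SE), adjusted p = 0.000817). In SI-pos, Nsf stood at 249, 260.1 and 283 CPM, against 62.8, 76.0 and 57.0 CPM in SI-neg (log2 fold change 2.02 ± 0.21 (SE), adjusted p = 1.83e-05), and it was the only 1 of 4 NSF and SNAP adaptor genes to pass in either tissue. Madd, an exchange factor for Rab3 and Rab27, stood at 261, 184 and 188 CPM in GB-pos against 51.1, 66.2 and 29.6 CPM in GB-neg (log2 fold change 2.11 ± 0.31 (SE), adjusted p = 0.000253). In SI-pos, Madd stood at 345, 419 and 507 CPM, against 46.4, 84.9 and 56.1 CPM in SI-neg (log2 fold change 2.76 ± 0.32 (SE), adjusted p = 3.55e-05). The groups were apart in both tissues for both genes. Of the 15 tested synaptotagmin-like proteins and Rab3 or Rab27 effectors, 1 was higher and 4 lower in gallbladder IL-25+ cells, and 2 were higher and 8 lower in small intestine IL-25+ cells, with median log2 fold changes of -0.60 in gallbladder and -1.70 in small intestine. Of all genes, 12.4% were higher and 14.4% lower in gallbladder, and 14.5% were higher and 12.8% lower in small intestine, and the counts of this list and of the lists that follow stand beside these shares. Sytl4 (granuphilin) was among the lower ones in gallbladder (log2 fold change -3.31 ± 0.74 (SE), adjusted p = 0.00512).

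The dense-core granule list had 1 of 13 tested genes higher and 1 lower in gallbladder, and 1 higher and 8 lower in small intestine, with median log2 fold changes of -2.19 in gallbladder and -5.12 in small intestine. Of 21 tested synaptic vesicle membrane and active zone genes, 2 were higher and 2 lower in gallbladder, and 4 were higher and 6 lower in small intestine. The dense-core granule gene that was higher in small intestine was Cadps2 (CAPS2), a granule priming factor. It stood at 43.5, 46.0 and 38.4 CPM in GB-pos against 37.8, 28.8 and 30.0 CPM in GB-neg. In SI-pos, Cadps2 stood at 204, 186 and 262 CPM, against 28.5, 26.2 and 29.5 CPM in SI-neg (log2 fold change 2.95 ± 0.21 (SE), adjusted p = 6.01e-07; interaction -2.55 ± 0.28 on the log2 scale (SE, adjusted p = 0.000141)). The gene of that list that was higher in gallbladder was Ptprn2, a granule membrane protein. It stood at 118, 91.9 and 62.8 CPM in GB-pos against 6.60, 4.70 and 0.682 CPM in GB-neg (log2 fold change 4.49 ± 0.70 (SE), adjusted p = 0.000560). In SI-pos, Ptprn2 stood at 13.4, 12.6 and 30.1 CPM, against 43.1, 84.2 and 76.9 CPM in SI-neg, and it passed as lower there. Its interaction was 6.36 ± 0.93 on the log2 scale (SE, adjusted p = 0.00134). Pclo (piccolo), an active zone scaffold that binds RIM proteins, stood at 70.8, 83.4 and 91.2 CPM in GB-pos against 40.2, 24.7 and 39.0 CPM in GB-neg (log2 fold change 1.24 ± 0.34 (SE), adjusted p = 0.0157). The Pclo call was lost without GB-neg 2 (adjusted p = 0.0645). In SI-pos, Pclo stood at 1.62, 0.642 and 1.14 CPM, against 54.3, 102 and 56.5 CPM in SI-neg (log2 fold change -5.96 ± 0.42 (SE), adjusted p = 6.04e-07; interaction 7.20 ± 0.53 on the log2 scale (SE, adjusted p = 1.04e-05)).

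Rab3ip and Esyt1 had interactions below 0. Rab3ip (rabin 3) stood at 28.6, 33.6 and 25.4 CPM in GB-pos against 45.7, 30.0 and 29.4 CPM in GB-neg. In SI-pos, Rab3ip stood at 148, 132 and 147 CPM, against 38.1, 36.9 and 51.6 CPM in SI-neg, with an interaction of -2.02 ± 0.33 on the log2 scale (SE, adjusted p = 0.00192). Esyt1, an extended synaptotagmin of endoplasmic reticulum contacts, stood at 21.5, 27.7 and 24.7 CPM in GB-pos against 33.2, 32.4 and 30.2 CPM in GB-neg, and at 112, 131 and 142 CPM in SI-pos against 21.01, 42.2 and 32.0 CPM in SI-neg, with an interaction of -2.39 ± 0.36 on the log2 scale (SE, adjusted p = 0.00106). Slc18a3, the vesicular acetylcholine transporter, had 0 counts in GB-pos and stood at 4.04, 3.09 and 26.8 CPM in SI-pos. Of 17 other SNAREs of endoplasmic reticulum, Golgi and endosomes, 3 were higher and 2 lower in gallbladder, and 0 passed in small intestine under edgeR (4 at an unadjusted p under 0.05, 2 under DESeq2 and 2 under limma-voom). Of 9 exocyst subunits, 1 was higher and 2 lower in gallbladder, and 0 passed in small intestine under edgeR (0 at an unadjusted p under 0.05, 0 under DESeq2 and 1 under limma-voom).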

How the data were processed

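RNA-seq was analysed in 12 libraries of sorted mouse epithelium, 3 in each of 4 groups of tissue and sort gate, grouped by the sample titles. Per the labels' protocols, cDNA libraries were made with Nextera XT, a kit that does not mark strand, and their quality was assessed with single-end 50 bp reads. The authors deposited raw read counts per Ensembl gene, and per the submitters' processing notes STAR 2.7.2b, DESeq2 1.26 and GRCm38 were used; the counter, strand setting and annotation release are not given in the sources used here. Of 43432 genes, 42548 matched GENCODE M21, which gave symbols, positions and exon lengths, and 11 columns that match no sample were not used.

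Genes were filtered in edgeR 4.0.16 (R 4.3.3) with filterByExpr at a minimum count of 10, scaled by TMM and fitted over all 12 libraries by group with a robust quasi-likelihood model. Two-sided F tests were adjusted by Benjamini-Hochberg over 16636 genes, with a threshold of 0.05 and no fold cutoff. The SE is the log2 fold change divided by the square root of F. A count of 0 allows up to 3 counts, or 0.0421 to 0.122 CPM by library, and a ratio to a group of 1 to 3 counts has an exact binomial 95% interval. Intervals and floors cover counting error only.

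Members and lists were chosen with earlier results of these data known. A few genes that enter the counts and sums are not reported here by name. Full values are given for members that passed at 5 CPM or more without overlap, up to 10 per direction and comparison, and for members of the interaction. Other passing members are given by change, uncalled ones by range and count with the leading member of each role class, and of pathway lists the 3 genes with the lowest adjusted p per list and comparison may be named. The alternatives run were DESeq2 1.42.0, limma-voom with quality weights (limma 3.58.1), RLE scaling in edgeR, no low-count filter, at least 5 CPM in 3 libraries, the replicate block, the block nested in tissue, the compared groups alone, each library left out, SI-neg 3 and GB-neg 1 left out together, and mitochondrial genes left out. The fit was tested on simulated counts. Figures used Python 3.11.15, pandas 2.3.3, numpy 2.4.6 and matplotlib 3.10.9, and exact intervals scipy 1.17.1.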

Additional observations from a re-analysis of the deposited data

Results flagged for a closer look

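By the interaction test, 6 members were higher and 2 lower, that is, their gate difference differed between gallbladder and small intestine. Of these, 7 are given here. On the log2 scale, gallbladder effect minus small intestine effect, the values were 14.07 for Apba1, 8.89 for Rab3b, 8.44 for Sv2c, 6.29 for Stxbp5l, 3.05 for Rims2, -1.43 for Snap23 and -8.75 for Ppfia2. Those of Apba1, Rab3b and Snap23 held under each alternative that was run, and the other 4 given here were each lost under at least 1. The Ppfia2 value was -2.19 without GB-neg 1, whose 75 counts were all the Ppfia2 counts of gallbladder IL-25- cells, a fit against 0 counts.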

How the results depend on the processing

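Of 102 calls of members over the 5 comparisons, 53 held under every alternative, 49 were lost under at least 1, and none reversed. Leaving out 1 library at a time, members passing as lower ranged from 7 to 16 in the small intestine gate, 5 to 8 in the gallbladder gate, 3 to 9 between IL-25+ fractions, 7 to 14 between IL-25- fractions and 1 to 2 in the interaction. Members passing as higher ranged from 5 to 9 between IL-25- fractions and 3 to 7 in the interaction. DESeq2 gave 16 members higher between IL-25+ fractions, 10 higher in the interaction and 2644 genes in the interaction. Limma-voom gave 6832 genes in the small intestine gate and 15 members higher between IL-25- fractions, where no low-count filter gave 8 lower. RLE size factors, the block, the nested block and leaving out SI-neg 3 and GB-neg 1 together each gave 1 member lower in the interaction. The cause of these shifts was not tested. RLE size factors moved the median of all genes by -0.12 in the small intestine gate, 0.11 between IL-25+ fractions and 0.16 in the interaction.

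The labels state no pairing of replicate numbers. Same-numbered libraries had correlations of -0.0281 to 0.0256 in small intestine and 0.0188 to 0.162 in gallbladder. Libraries with different numbers had -0.0624 to 0.0618 in small intestine and -0.179 to 0.0957 in gallbladder. With 3 libraries a group, these values can neither show nor exclude a pairing. With the replicate block 87 of the 102 calls held and 15 were lost, and with the nested block, which was run for the 64 calls of the gate and interaction comparisons, 57 held and 7 were lost. The losses listed member by member leave out both block fits. Members with few counts, such as Apba1, Ppfia2 and Stxbp5l, are limited in precision by the 0 to 2 counts of 1 group.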
